A study of Mus musculus with 22 samples.

Results

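The MHC class II pathway is described here through 7 genes, Ciita, Cd74, H2-Aa, H2-Ab1, H2-Eb1, H2-DMa and H2-DMb1. They were taken by symbol from a table of 15725 gene symbols, and all 7 were found in it. The study measured RNA by sequencing in primary microglia, the macrophages of the brain, from the cortex of neonatal C57BL/6 mice. Mixed glia were grown first and the microglia were shaken off. Every one of the 22 libraries is from cells exposed for 24 h to 100 ng/ml of LPS (lipopolysaccharide, an outer membrane molecule of Gram-negative bacteria that activates macrophages). No culture without LPS was analysed here.

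The LPS group received no other agent (n = 3). The LPS+Baf A1 group also received 10 nM bafilomycin A1, an inhibitor of the vacuolar proton pump that blocks late autophagy (n = 5). The LPS+CLA group received 50 nM of an agent that the labels name only as CLA (n = 6). The LPS+siAtg5 group was transfected for 48 h with 50 nM siRNA against Atg5, a gene needed to form autophagosomes (n = 5). The LPS+dNC group (n = 3) is the comparator that the study's design gives for LPS+siAtg5. What dNC stands for is not spelled out. Levels are in FPKM, which counts sequenced fragments relative to gene length and to the size of the library.

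MHC class II molecules present peptides from the endosomal and lysosomal route to CD4+ T cells. An alpha and a beta chain assemble in the endoplasmic reticulum with the invariant chain, encoded by Cd74, which blocks the peptide groove and steers the complex to endosomes. There proteases trim the invariant chain, and the H2-DM heterodimer exchanges its last fragment for peptide. The class II genes and Cd74 are controlled by CIITA, a coactivator without DNA binding of its own, which joins RFX, NF-Y and CREB factors on a conserved X and Y box promoter module. In brain, resting microglia carry little class II, and interferon gamma is the classical inducer.

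On GRCm38, 5 of the genes lie together on chromosome 17, and the RefSeq promoters of 3 of them carry the X and Y module. H2-DMa (34119541 to 34139101), H2-DMb1 (34153072 to 34160230), H2-Ab1 (34257689 to 34269419) and H2-Eb1 (34305867 to 34316674) are on the plus strand, and H2-Aa (34282744 to 34287823) is on the minus strand. Ciita and Cd74 lie on other chromosomes. The stretches below are shown because they are the site at which the shared control of these genes is known to act. They are printed 5′ to 3′ on the gene's strand, with the X core and, where it falls in the stretch, the Y core in capitals.
H2-Aa, chr17:34287847-34287924, minus strand: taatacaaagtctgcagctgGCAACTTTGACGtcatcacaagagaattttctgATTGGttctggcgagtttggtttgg
H2-Eb1, chr17:34305756-34305832, plus strand: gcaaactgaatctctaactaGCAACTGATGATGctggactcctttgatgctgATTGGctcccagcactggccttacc
H2-DMb1, chr17:34153089-34153117, plus strand: tttacctaGTAACTGATGATGctaggctg

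The sequences are from RefSeq on GRCm38.p6. The X core was searched as GNAAC and TGANG with 2 or 3 bases between them, and the Y core as ATTGG, on both strands of the 250 bases before each start. These letters and their spacing were written with the promoters of these genes in view. The X core began 81 bases before the start of H2-Aa, 91 before that of H2-Eb1 and 94 before that of H2-DMb1, and the Y core began 33, 32 and 33 bases after it. For H2-DMb1 only the X core is shown, because GENCODE places the first exon further upstream than RefSeq and the stretch falls inside it. Of 32851 promoters, 1.485% held either X core, 33.85% held the Y core, and 28 (0.085%) held an X core followed by a Y core on the same strand with starts 15 to 45 bases apart. Among those 28 was also H2-Ob, another class II chain gene. The 2 promoters listed for H2-DMa held no such X core. No promoter was printed for Ciita, Cd74 or H2-Ab1.

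The 22 libraries differed in ways that the groups do not name. Sums of FPKM ranged from 469750 to 575125, and read counts were not used here, so depth is unknown. LPS replicate 3, LPS+dNC replicate 1 and LPS+CLA replicate 2 each lay apart from their group. Atg5 was at 13.1 ± 0.365 FPKM (SD, n = 5) in LPS+siAtg5 and 22.3 ± 1.67 (SD, n = 3) in LPS+dNC. Of 12 microglial markers, 8 to 10 had a group mean of at least 1 FPKM, and Siglech was at 0 in every library of LPS+Baf A1, LPS+dNC and LPS+CLA. Of 9 dendritic cell markers 7 were in the table, and they summed to 1.39 to 6.88 FPKM. The 3 B cell markers of 6 that were in the table summed to 0.1 to 1.13 FPKM.

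Ciita, the master regulator (chromosome 16, 10480059 to 10528418 on GRCm38, plus strand), was close to nothing in these cultures. It was at 0 in 14 of 22 libraries, including all 5 LPS+Baf A1 and all 6 LPS+CLA libraries. The 3 LPS libraries had 0, 0.01 and 0 FPKM, the 3 LPS+dNC libraries 0, 0.02 and 0.02, and the 5 LPS+siAtg5 libraries 0.04, 0.06, 0.05, 0.06 and 0.01. All LPS+siAtg5 libraries were thus above 0, but the smallest step in the table is 0.01 FPKM and the groups overlapped. Its span is overlapped on the opposite strand by Dexi over 25888 bases, and whether counting used strand is not stated. Dexi had group means of 1.71 to 3.02 FPKM.

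**Figure D1:**
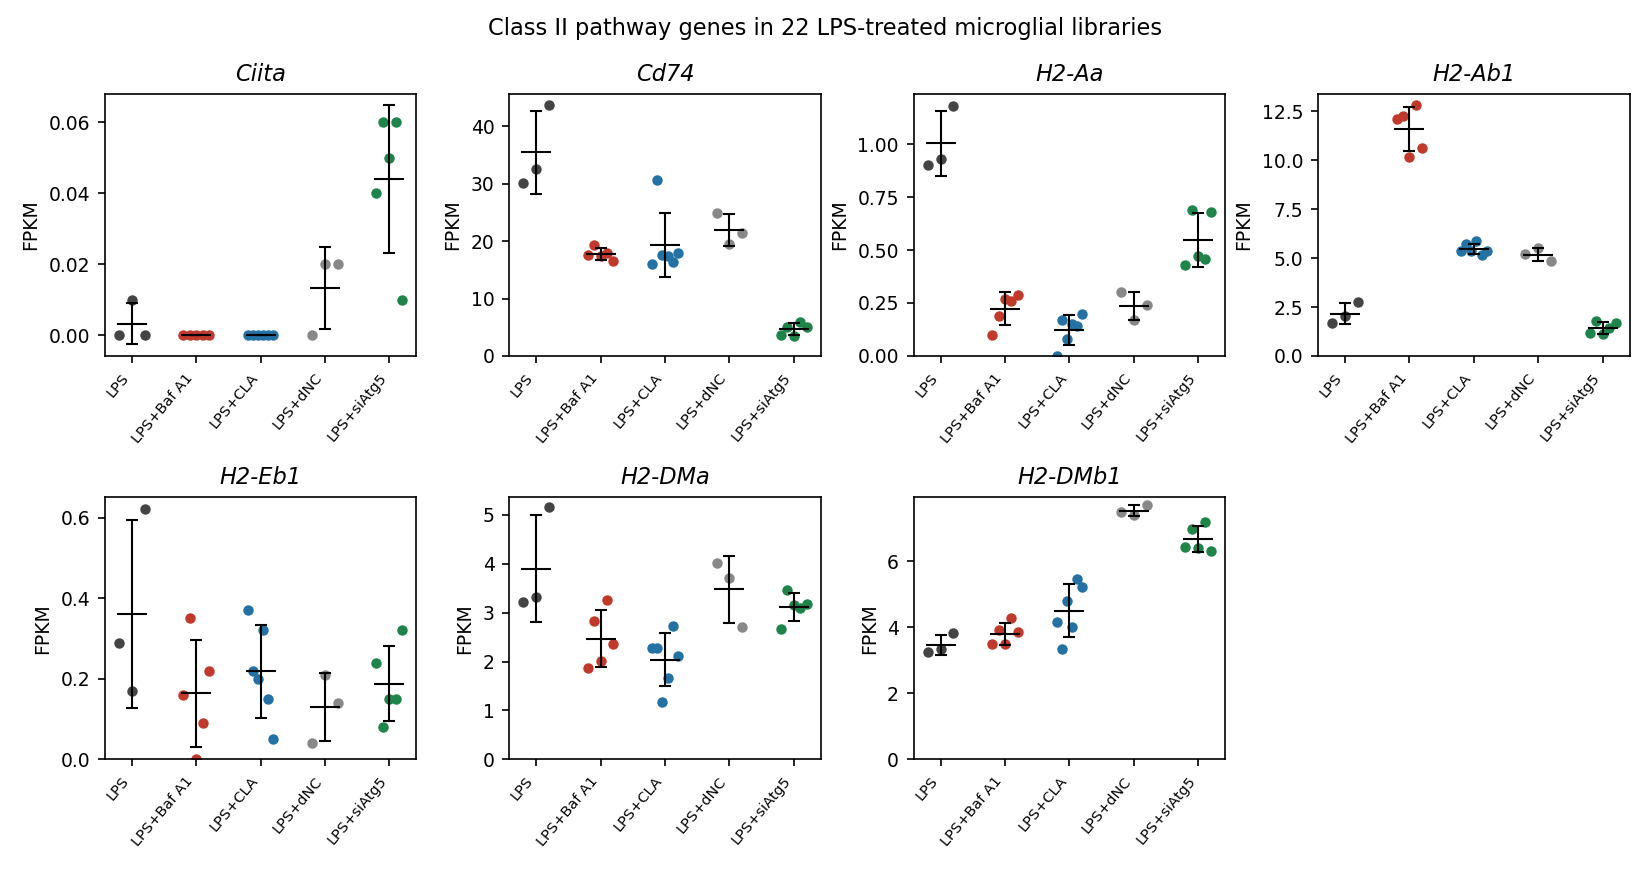
FPKM (vertical axes, linear, each panel with its own scale) of the 7 class II pathway genes in the 22 libraries, by group. Points are libraries and black bars are mean ± SD; H2-Ab1 was highest in LPS+Baf A1 (10.15 to 12.83 FPKM) and Cd74 lowest in LPS+siAtg5 (3.53 to 5.96 FPKM).

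Cd74, the invariant chain, was the most abundant of the 7 in the LPS group and was lower in each of the other 4 groups. The gene lies on chromosome 18 (60803848 to 60812652 on GRCm38, plus strand). The LPS libraries had 30.19, 32.54 and 43.69 FPKM and the LPS+dNC libraries 24.97, 19.45 and 21.38. The LPS+Baf A1 libraries had 17.66, 19.24, 17.43, 17.92 and 16.48 FPKM, and the LPS+CLA libraries had 16, 30.66, 17.63, 17.47, 16.29 and 17.98. The LPS+siAtg5 libraries had 3.62, 5.04, 3.53, 5.96 and 5.09 FPKM. LPS+siAtg5 lay below all other libraries, and LPS lay above all others except LPS+CLA replicate 2, which reached into its range. In bulk RNA, fewer cells of a type and less RNA per cell cannot be told apart.

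Both classical alpha and beta chain genes were measured, and they did not share an order of groups. H2-Ab1, the beta chain of the I-A molecule, had 1.71, 2.03 and 2.77 FPKM in LPS and 12.12, 12.27, 10.15, 12.83 and 10.65 in LPS+Baf A1. In LPS+CLA it had 5.34, 5.73, 5.36, 5.87, 5.18 and 5.38 FPKM, in LPS+dNC 5.19, 5.5 and 4.83, and in LPS+siAtg5 1.17, 1.78, 1.11, 1.45 and 1.7. LPS+Baf A1 was thus highest, LPS+CLA and LPS+dNC overlapped in the middle, and LPS and LPS+siAtg5 overlapped at the bottom.

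H2-Aa, the alpha chain that pairs with the product of H2-Ab1, was low and had a different order. It had 0.9, 0.93 and 1.18 FPKM in LPS, and 0.43, 0.69, 0.47, 0.46 and 0.68 in LPS+siAtg5. It had 0.3, 0.17 and 0.24 FPKM in LPS+dNC, 0.1, 0.19, 0.27, 0.26 and 0.29 in LPS+Baf A1, and 0, 0.17, 0.08, 0.15, 0.14 and 0.2 in LPS+CLA. LPS was highest and LPS+siAtg5 second, with no overlap, and the other 3 groups overlapped below them. H2-Ab1 therefore made up 59.0 to 64.9% of the summed FPKM of H2-Aa, H2-Ab1 and H2-Eb1 in LPS and 95.4 to 97.9% in LPS+Baf A1. Only 1 library had H2-Aa at 1 FPKM or more.

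H2-Eb1, the beta chain of the I-E molecule, which C57BL/6 mice do not assemble for lack of a working alpha chain, stayed at or below 0.62 FPKM in all 22 libraries. Its LPS libraries had 0.29, 0.17 and 0.62 FPKM, and the ranges of all 5 groups overlapped. The other 19 libraries ranged from 0 to 0.37 FPKM. No order of the groups can be read from these low values.

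The DM genes, which encode the peptide exchange factor, had different orders of groups. H2-DMa had 3.21, 3.32 and 5.16 FPKM in LPS, 1.86, 2.83, 2.02, 3.26 and 2.35 in LPS+Baf A1, and 2.27, 2.27, 1.17, 1.67, 2.72 and 2.12 in LPS+CLA. It had 4.01, 3.71 and 2.71 FPKM in LPS+dNC and 2.67, 3.46, 3.16, 3.09 and 3.18 in LPS+siAtg5. LPS+CLA lay below LPS, and the other groups overlapped with LPS.

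H2-DMb1, the beta subunit, was at its highest in LPS+dNC, with 7.47, 7.38 and 7.71 FPKM, and next in LPS+siAtg5, with 6.41, 6.98, 6.4, 7.19 and 6.31. The LPS libraries had 3.25, 3.35 and 3.81 FPKM, the LPS+Baf A1 libraries 3.5, 3.9, 3.49, 4.29 and 3.84, and the LPS+CLA libraries 4.17, 3.35, 4.78, 4, 5.45 and 5.22. LPS+dNC and LPS+siAtg5 lay above the other 3 groups and did not overlap with each other, and the other 3 groups overlapped. Of the 50-base stretches of H2-DMb1 transcripts, 27.2% also occur in transcripts of its paralog H2-DMb2, so some reads may be shared. H2-DMb2 had group means of 0.365 to 0.643 FPKM, far below H2-DMb1.

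Within a group, the order of the genes by FPKM, which is scaled to gene length, also changed. In LPS, Cd74 was highest, H2-DMa and H2-DMb1 overlapped below it, and H2-Ab1, H2-Aa, H2-Eb1 and Ciita followed without overlap. In LPS+Baf A1, H2-Ab1 was second to Cd74 and above both DM genes, with no overlap at either step. Cd74 exceeded H2-Ab1 by 15.77 to 17.65 times in LPS libraries and by 1.4 to 1.72 times in LPS+Baf A1 libraries. In LPS+siAtg5, H2-DMb1 was above Cd74, with no overlap between them.

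Differences were tested on the log2(FPKM + 1) scale with limma, in a model over the 11070 genes that reached 1 FPKM in at least 3 libraries. Of the 7 genes, 4 entered it, Cd74, H2-Ab1, H2-DMa and H2-DMb1, each at 1 FPKM or more in all 22 libraries. A gene was called at a Benjamini-Hochberg adjusted p under 0.05 over all genes tested. Two-sided exact permutation tests, with p not adjusted, were added for each of the 7 genes in 6 pairs of groups, 42 tests in all. Nothing in the labels says that replicates were separate cultures. The p-values therefore cover the spread of these libraries alone, and that spread could be technical.

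Bafilomycin A1 was compared with LPS alone to ask how blocking autophagy at its late step altered activated microglia. H2-Ab1 rose and Cd74 and H2-DMa fell, so 3 of 4 tested genes were called, where 57.8% of all genes were (32.7% higher, 25.1% lower). H2-Ab1 rose from 2.17 ± 0.544 FPKM (SD, n = 3) to 11.6 ± 1.14 (SD, n = 5), a mean 5.35 times that of LPS. Its log2 change was 2.0 (SE 0.102, limma adjusted p = 3.58e-13). The exact permutation p was 0.0179, the smallest that 3 against 5 libraries allow.

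Cd74 fell in the same libraries in which H2-Ab1 rose, from 35.5 ± 7.21 FPKM (SD, n = 3) to 17.7 ± 0.997 (SD, n = 5). Its log2 change was -0.94 (SE 0.169, limma adjusted p = 5.77e-05; exact permutation p = 0.0179). H2-DMa changed by -0.49 (SE 0.159, limma adjusted p = 0.0107), with an exact permutation p of 0.0536 and overlapping groups. Without LPS replicate 3 the change of H2-DMa was -0.32 (limma adjusted p = 0.116) and it was no longer called. H2-DMb1 was at 0.10 (SE 0.0969, limma adjusted p = 0.382) and did not pass.

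H2-Aa was below the filter, and all 5 LPS+Baf A1 libraries were below all 3 LPS libraries (exact permutation p = 0.0179), at 0.221 times the LPS mean. In the fit without a filter its log2 change was -0.71 (limma adjusted p = 5.49e-08). The alpha and beta chain genes of the I-A molecule thus moved in opposite directions. The summed FPKM of 10 border macrophage and monocyte markers was 893 to 985 in LPS and 625.2 to 675 in LPS+Baf A1, and the microglial list summed to 1569 to 2162 and 2136 to 2249. The lower border macrophage sum rested on Ms4a7, with a mean of 696 FPKM in LPS and 335 in LPS+Baf A1. Mrc1 of the same list was also called lower, from 12.44 to 5.1 FPKM. Pf4 rose from 97.7 to 209 FPKM, and Stab1, F13a1, Ly6c2 and Cbr2 were not called. The part of these in the fall of Cd74 and H2-Aa was not tested.

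**Figure D2:**
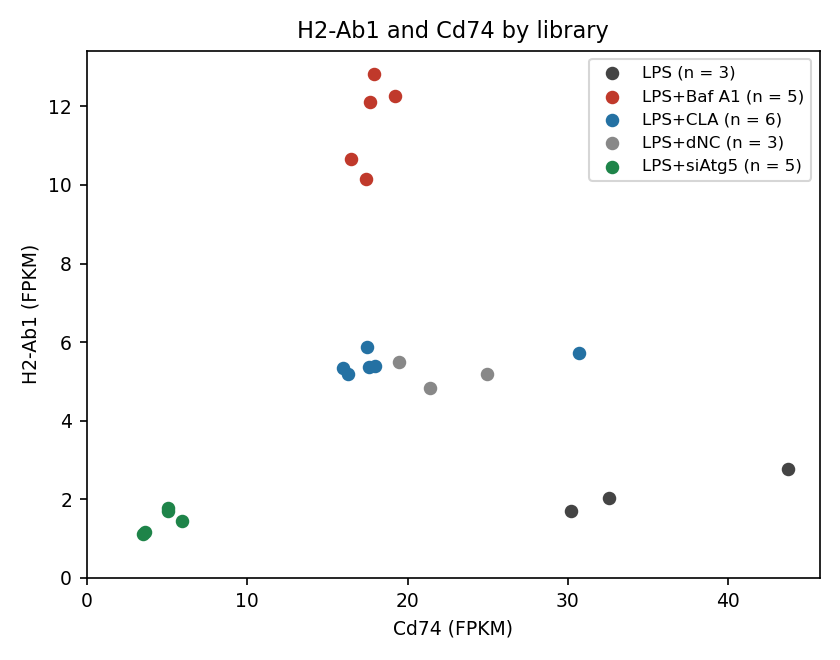
H2-Ab1 (vertical axis, FPKM) against Cd74 (horizontal axis, FPKM), with each point 1 library coloured by group. The LPS+Baf A1 libraries sit at 10.15 to 12.83 FPKM of H2-Ab1 with less Cd74 than the LPS libraries, and the LPS+siAtg5 libraries are low in both.

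CLA was compared with LPS alone, the other comparison that the design names for LPS. H2-Ab1 and H2-DMb1 rose and Cd74 and H2-DMa fell, so all 4 tested genes were called, where 63.1% of all genes were (40.4% higher, 22.6% lower). H2-Ab1 reached 5.48 ± 0.264 FPKM (SD, n = 6). Its log2 change from LPS was 1.04 (SE 0.0986, limma adjusted p = 4.22e-09; exact permutation p = 0.0119). That p is the smallest that 3 against 6 libraries allow.

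Cd74 was at 19.3 ± 5.6 FPKM (SD, n = 6), and its log2 change from LPS was -0.86 (SE 0.164, limma adjusted p = 9.14e-05; exact permutation p = 0.0238). The SD came mostly from LPS+CLA replicate 2, and without it the change was -1.0. H2-DMa was at 2.04 ± 0.542 FPKM (SD, n = 6), with a change of -0.69 (SE 0.153, limma adjusted p = 0.000476; exact permutation p = 0.0119). H2-DMb1 changed by 0.29 (SE 0.0938, limma adjusted p = 0.0108; exact permutation p = 0.0714).

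The call of H2-DMb1 was lost with median-of-ratios scaling, at 0.17 (limma adjusted p = 0.102), with quantile normalization, at 0.17 (limma adjusted p = 0.0965), and without LPS replicate 1, at 0.25 (limma adjusted p = 0.0549). H2-Aa fell here too, to 0.123 times its LPS mean, with no overlap (exact permutation p = 0.0119) and a change of -0.83 in the fit without a filter (limma adjusted p = 1.93e-09). Dendritic cell markers summed to 3.16 to 6.88 FPKM in LPS+CLA and 1.93 to 2.75 in LPS. Group means were higher than in LPS for Batf3 (0.66 to 2.49 FPKM), Clec10a (0.1 to 0.998) and Itgax (0.82 to 1.46). Ccr7 (0.0067 to 0.0833) and Zbtb46 (0.03 to 0.0483) were also higher but very low. Xcr1 (0.693 to 0.353 FPKM) and Clec9a (0.04 to 0.0133) were lower. Border macrophage and monocyte markers summed to 563 to 806 FPKM in LPS+CLA and 893 to 985 in LPS. This difference rested mostly on Ms4a7, at 403 FPKM against 696. Mrc1 (12.44 to 4.86 FPKM), Ly6c2 (1.21 to 0.0917) and Stab1 (119 to 96.9) were also called lower. Pf4 rose from 97.7 to 244 FPKM and Cbr2 from 0.64 to 2.10, and F13a1 was not called. The part of these markers in the changes was not tested.

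LPS+CLA and LPS+Baf A1 were set against each other directly, where 54.3% of all genes were called (35.4% higher, 19% lower). Of the 4 tested genes only H2-Ab1 was called. Its mean in LPS+CLA was 0.472 times that in LPS+Baf A1, and its log2 change was -0.96 (SE 0.0844, limma adjusted p = 2.85e-09; exact permutation p = 0.00216). Cd74 differed by 0.08 (SE 0.14, limma adjusted p = 0.644), and H2-DMb1 by 0.18 (SE 0.0803, limma adjusted p = 0.0581). H2-DMb1 was called without LPS+CLA replicate 2 (0.25, limma adjusted p = 0.00439), without LPS+CLA replicate 4 (0.21, limma adjusted p = 0.0435) and without LPS+Baf A1 replicate 4 (0.22, limma adjusted p = 0.0362). The comparisons of these groups with LPS share the LPS libraries.

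The knockdown of Atg5 was compared with LPS+dNC to ask what knockdown of an early autophagy gene did. Cd74 and H2-Ab1 both fell, so 2 of 4 tested genes were called, where 81.2% of all genes were (59.6% higher, 21.6% lower). Cd74 went from 21.9 ± 2.80 FPKM (SD, n = 3) to 4.65 ± 1.05 (SD, n = 5), at 0.212 times the LPS+dNC mean. Its log2 change was -2.04 (SE 0.169, limma adjusted p = 2.85e-10; exact permutation p = 0.0179). H2-Ab1 went from 5.17 ± 0.335 FPKM (SD, n = 3) to 1.44 ± 0.302 (SD, n = 5), a change of -1.34 (SE 0.102, limma adjusted p = 3.86e-11; exact permutation p = 0.0179).

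The median change over all genes was 0.34 in this comparison, 0.06 after median-of-ratios scaling and 0.01 after quantile normalization. The falls of Cd74 and H2-Ab1 were called under both, and that of H2-Ab1 was -2.05 with quantile normalization. H2-DMb1 went from 7.52 ± 0.171 FPKM (SD, n = 3) to 6.66 ± 0.399 (SD, n = 5), a change of -0.16 (SE 0.0969, limma adjusted p = 0.143; exact permutation p = 0.0357), and was called lower under both scalings. H2-DMa was at -0.11 (SE 0.159, limma adjusted p = 0.513), and was called lower with quantile normalization, at -0.76.

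H2-Aa was higher with Atg5 siRNA than in LPS+dNC in all libraries (exact permutation p = 0.0179), at 2.31 times its mean. In the fit without a filter its change was 0.32 (limma adjusted p = 0.000441) and that of Ciita 0.04 (limma adjusted p = 0.0114). The libraries of the groups overlapped for Ciita (exact permutation p = 0.0893). Markers of other cells also differed between these groups. Astrocyte markers summed to 311 to 359 FPKM in LPS+siAtg5 and 5.35 to 25.0 in LPS+dNC, all 10 being in the table, with 9 and 5 at a mean of 1 FPKM or more. Neuronal markers summed to 53.8 to 67.1 and 1.86 to 12.1 FPKM, and fibroblast, mural and endothelial markers to 91.5 to 122 and 5.72 to 15.03. The microglial list summed to 1563 to 1660 FPKM in LPS+siAtg5 and 1140 to 1273 in LPS+dNC, and the border macrophage and monocyte list to 626 to 680.2 and 854 to 958. The groups did not overlap in any of these 5 sums. The lower border macrophage sum rested mostly on Ms4a7, at 572 FPKM in LPS+siAtg5 against 828 in LPS+dNC. Pf4 (38.5 to 20.7 FPKM), F13a1 (1.37 to 0.394) and Cbr2 (3.51 to 0.362) were also called lower. Mrc1 (1.45 to 5.92 FPKM), Stab1 (37.6 to 55.7) and Ly6c2 (0.557 to 1.28) were called higher. The part of all these markers in the changes of the class II genes was not tested.

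**Figure D3:**
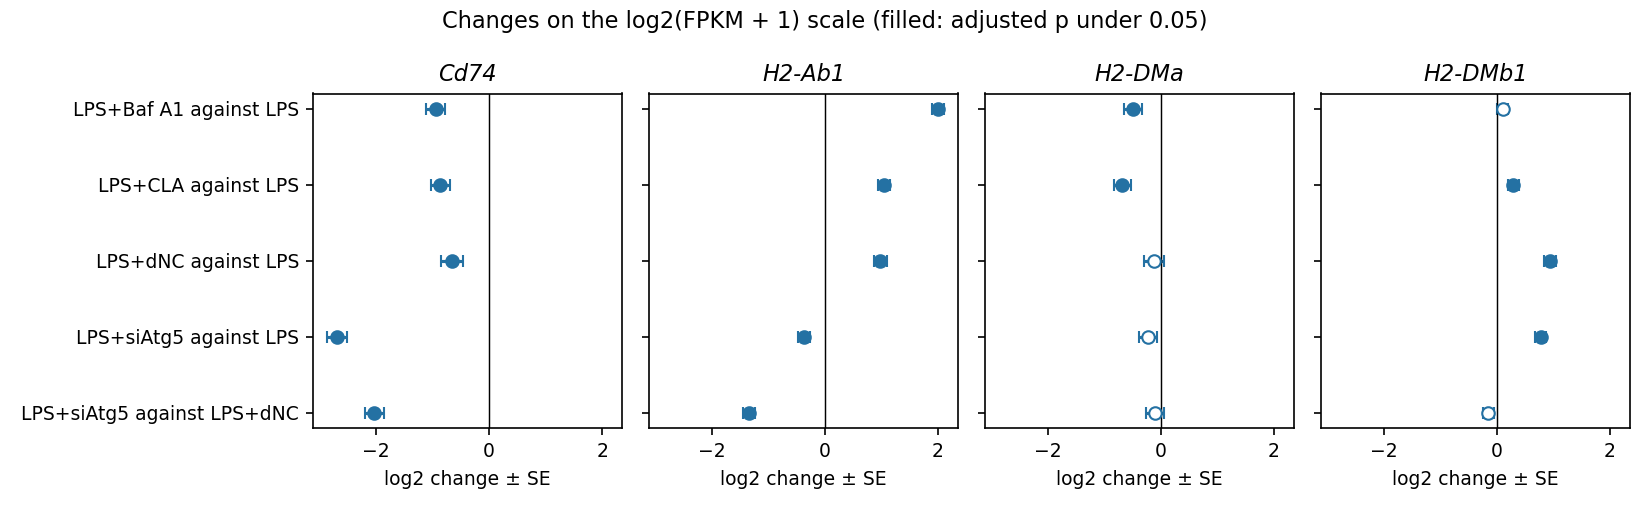
Log2 changes on the log2(FPKM + 1) scale (horizontal axis) with SE for the 4 tested class II genes in 5 comparisons. Filled points passed an adjusted p under 0.05; H2-Ab1 lies right of 0 in LPS+Baf A1 and LPS+CLA and left of 0 in LPS+siAtg5, while all Cd74 points lie left of 0.

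The difference between the effect of Baf A1 (over LPS) and that of Atg5 siRNA (over LPS+dNC) was tested itself, and 72.7% of all genes were called (20.4% higher, 52.3% lower). H2-Ab1 and Cd74 were called higher, which makes 2 of 4. The effects on H2-Ab1 had opposite signs and differed by 3.35 (SE 0.144, limma adjusted p = 9.45e-15). Both effects on Cd74 were negative and differed by 1.09 (SE 0.239, limma adjusted p = 0.000345). The differences of H2-DMa (-0.38, SE 0.224, limma adjusted p = 0.133) and H2-DMb1 (0.26, SE 0.137, limma adjusted p = 0.0942) did not pass. H2-DMb1 was called with median-of-ratios scaling, at 0.50 (limma adjusted p = 0.00219), and with quantile normalization, at 0.61 (limma adjusted p = 0.000157).

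LPS+dNC was also set against LPS alone, 3 libraries on each side, where the smallest exact p is 0.1. H2-Ab1 and H2-DMb1 were higher and Cd74 lower, 3 of 4 tested genes, where 57.2% of all genes were called (29% higher, 28.1% lower). H2-Ab1 changed by 0.97 (SE 0.114, limma adjusted p = 1.55e-07) and H2-DMb1 by 0.93 (SE 0.108, limma adjusted p = 1.42e-07). Cd74 changed by -0.66 (SE 0.189, limma adjusted p = 0.00506), and H2-DMa by -0.12 (SE 0.177, limma adjusted p = 0.591). All 3 LPS+dNC libraries were below all 3 LPS libraries for H2-Aa. LPS+dNC is thus no copy of LPS alone for these genes. The microglial list summed to 1140 to 1273 FPKM in LPS+dNC and 1569 to 2162 in LPS. Of its genes, Csf1r had a mean of 153 FPKM against 869 and Cx3cr1 0.177 against 7.79, and both were called lower. Their part in these changes was not tested.

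Against LPS alone, LPS+siAtg5 had Cd74 and H2-Ab1 lower and H2-DMb1 higher, 3 of 4, where 76.8% of all genes were called (61.2% higher, 15.6% lower). Cd74 was at 0.131 times the LPS mean, a change of -2.69 (SE 0.169, limma adjusted p = 4.41e-12). H2-Ab1 changed by -0.37 (SE 0.102, limma adjusted p = 0.00227; exact permutation p = 0.0536), by -0.24 (limma adjusted p = 0.0388) without LPS replicate 3, by -0.59 with median-of-ratios scaling and by -1.14 with quantile normalization. H2-DMb1 changed by 0.78 (SE 0.0969, limma adjusted p = 1.97e-07), by 0.48 with median-of-ratios scaling and by 0.32 with quantile normalization. H2-DMa, at -0.23 (SE 0.159, limma adjusted p = 0.186), was called lower under both scalings, at -0.51 and -0.91. The median change over all genes was 0.31 here.

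Each of these changes was also fitted without the 3 libraries that lay apart. Cd74 then changed by -0.79 in LPS+Baf A1, -0.84 in LPS+CLA and -0.60 in LPS+dNC against LPS, and by -1.94 in LPS+siAtg5 against LPS+dNC. The changes of H2-Ab1 were 2.13, 1.16, 1.10 and -1.34 in the same order, and all 8 were called. The difference of the Baf A1 and siAtg5 effects was then 3.48 for H2-Ab1 and 1.15 for Cd74, and both were called, as was that of H2-DMb1, at 0.32 (limma adjusted p = 0.0293). H2-DMa in LPS+CLA was at -0.54 (limma adjusted p = 0.00709).

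H2-DMa shares 3094 bases of its span with Brd2, a chromatin reader gene on the opposite strand, and without strand the reads of such a pair cannot be told apart. Brd2 was far more abundant, with 186 ± 3.63 FPKM (SD, n = 3) in LPS and 110 ± 2.08 (SD, n = 5) in LPS+Baf A1. It had 115 ± 8.13 FPKM (SD, n = 6) in LPS+CLA, 120 ± 5.05 (SD, n = 3) in LPS+dNC and 114 ± 2.97 (SD, n = 5) in LPS+siAtg5. Against LPS, Brd2 fell in LPS+Baf A1 (log2 change -0.76) and LPS+CLA (-0.70), as H2-DMa did. Brd2 also fell in LPS+dNC (-0.63) and LPS+siAtg5 (-0.70), where H2-DMa was not called in the main fit. In LPS+siAtg5, H2-DMa was called lower with median-of-ratios scaling (-0.51) and with quantile normalization (-0.91). The part of Brd2 reads in the H2-DMa values was not tested.

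**Figure D4:**
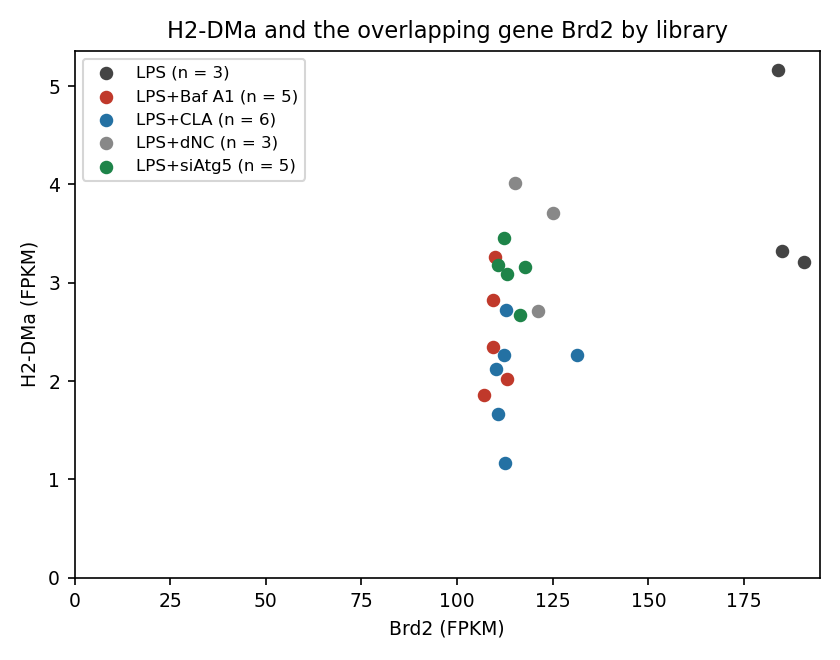
H2-DMa (vertical axis, FPKM) against Brd2 (horizontal axis, FPKM), with each point 1 library coloured by group. The 3 LPS libraries stand apart at high Brd2, while the other 19 libraries lie at 107.1 to 131.44 FPKM of Brd2 and 1.17 to 4.01 FPKM of H2-DMa.

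The DNA-bound factors and the interferon gamma route to CIITA were described by 15 genes, all tested. In LPS+Baf A1, 1 rose and 6 fell, with a median log2 change of -0.11 beside 0.04 over all genes, where 57.8% of all genes were called. Irf1, an interferon-induced activator of Ciita, fell from 194 to 69.8 FPKM (-1.46, SE 0.0656, limma adjusted p = 6.67e-14). Irf2, a related factor, fell from 54.8 to 30.6 FPKM. A smaller fall was that of Rfx5, the large RFX subunit (6.30 to 4.67 FPKM, -0.36). Ifngr2, a chain of the interferon gamma receptor, rose from 76.0 to 93.6 FPKM (0.30).

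In LPS+CLA, 3 of these 15 rose and 6 fell, with a median of -0.08 beside 0.09 over all genes, where 63.1% were called. Irf1 fell to 43.1 FPKM (-2.15, SE 0.0635, limma adjusted p = 1.75e-17) and Irf2 to 25.4. Rfx5 fell to 2.87 FPKM (-0.91). Ifngr2, Creb1 and Nfya were called higher by 0.25, 0.33 and 0.17 on the log2 scale, and none of these 3 was called with median-of-ratios scaling, which left 0 higher and 8 lower.

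In LPS+siAtg5 against LPS+dNC, 5 rose and 6 fell, with a median of 0.04 beside 0.34 over all genes, where 81.2% were called. With median-of-ratios scaling 2 rose and 9 fell, and with quantile normalization 3 and 8. Jak2, a kinase of the interferon gamma receptor, fell from 102 to 43.5 FPKM (-1.21) and Ifngr2 from 145 to 71.6 (-1.01). Rfx5 fell from 6.34 to 3.48 FPKM (-0.71) and Irf1 from 102 to 64.6 (-0.64). Nfya, an NF-Y subunit, rose from 28.8 to 44.8 FPKM (0.62) and Creb1 from 6.46 to 12.1 (0.81).

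Antigen processing was described by 10 tested genes, of 14 listed symbols, for proteases, tetraspanins and related proteins. In LPS+Baf A1, 3 rose and 2 fell (median 0.05, beside 0.04 over all genes), where 57.8% of all genes were called. With quantile normalization 3 rose and 4 fell. Ctss, cathepsin S, which trims the invariant chain in antigen-presenting cells, fell from 1985 to 1435 FPKM (-0.46, SE 0.0532, limma adjusted p = 1.41e-07), and Lgmn, an asparaginyl protease, from 760 to 522. Ctsd, an aspartic protease of lysosomes, rose from 1822 to 2897 FPKM (0.67), Cd63 from 194 to 301 (0.63) and Cd9 from 19.4 to 48.7 (1.29).

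In LPS+CLA, 5 of the 10 rose and 4 fell (median 0.21, beside 0.09 over all genes), where 63.1% of all genes were called. With median-of-ratios scaling 3 rose and 4 fell. Ctss fell to 1441 FPKM (-0.46), Ctsb to 1315 from 1778 (-0.43) and Ctsd to 1372 (-0.41). Ctsl, cathepsin L, rose from 346 to 567.9 FPKM (0.70). Cd63 rose to 246 (0.34), and Cd37 was called higher by 0.27, though not with median-of-ratios scaling.

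In LPS+siAtg5 against LPS+dNC, 4 of the 10 rose and 4 fell (median 0.07, beside 0.34 over all genes), where 81.2% of all genes were called. With median-of-ratios scaling 3 rose and 5 fell, and with quantile normalization 6 and 2. Ctsb fell from 4055 to 1768 FPKM (-1.19) and Sppl2a, the protease that clears the last membrane stub of the invariant chain, from 187 to 123 (-0.60). Ctsd rose from 1216 to 2949 FPKM (1.3), Cd9 from 15.2 to 61.8 (2.05) and Ifi30, a lysosomal thiol reductase, from 32.2 to 77.2 (1.27). Ctss was at -0.24 and called lower, at -0.56 with median-of-ratios scaling, and called higher at 0.38 with quantile normalization, so its direction depends on the scaling.

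CD74 at the cell surface is also a receptor for macrophage migration inhibitory factor, encoded by Mif, and for its homolog Ddt, and signals with CD44 and CXCR4. Of 4 tested genes of this axis, 2 rose and 1 fell in each of the 3 main comparisons, where 57.8% (Baf A1), 63.1% (CLA) and 81.2% (siAtg5 against dNC) of all genes were called. With median-of-ratios scaling 2 rose and 2 fell in the knockdown. Mif rose from 119 FPKM in LPS to 271 with Baf A1 (1.19) and 383 with CLA (1.68), and Ddt from 19.0 to 41.7 (1.10) and 56.1 (1.52). Both ligands thus rose where Cd74 fell. Cxcr4 fell from 2.97 FPKM to 1.04 (-0.95) and 1.34 (-0.76).

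In the knockdown the ligand fell with Cd74. Mif went from 269 FPKM in LPS+dNC to 87.2 in LPS+siAtg5 (-1.61, SE 0.0707, limma adjusted p = 2.82e-15). Cd44 rose from 37.9 to 87.0 FPKM (1.19) and Cxcr4 from 0.7 to 4.79 (1.79). Ddt was at 0.11 and did not pass, and with median-of-ratios scaling it was called lower, at -0.21, so its sign depends on the scaling.

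Cytokines and feedback genes that set class II levels were described by 6 tested genes of 8 listed. In LPS+Baf A1, 1 rose and 3 fell (median -0.29, beside 0.04 over all genes), where 57.8% of all genes were called. With median-of-ratios scaling 1 rose and 4 fell. The gene that rose was Tgfb1, which encodes transforming growth factor beta 1, from 109 to 132 FPKM (0.27, SE 0.0649, limma adjusted p = 0.0011). Il10, which lowers class II in macrophages, fell from 7.64 to 3.44 FPKM (-0.92, SE 0.159, limma adjusted p = 3.92e-05) and Ifnb1 from 4.22 to 1.08 (-1.32). In LPS+CLA, 2 rose and 3 fell (median -0.45, beside 0.09), where 63.1% were called, and under both scalings 2 rose and 4 fell. Tgfb1 rose there by 0.31 on the log2 scale. Il10 rose to 23.8 FPKM (1.57), while Ifnb1 fell to 0.493 (-1.81).

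In LPS+siAtg5 against LPS+dNC, 1 of the 6 rose and 4 fell, with a median of -1.98 beside 0.34 over all genes, where 81.2% were called. Il10 fell from 100 to 25.5 FPKM (-1.94), Il27 from 73.7 to 6.81 (-3.26), Socs1, an inhibitor of interferon signalling, from 30.4 to 4.68 (-2.45) and Socs3 from 386 to 93.5 (-2.03). Ifnb1 was called higher, from 0.173 to 0.91 FPKM (0.70), though not with quantile normalization.

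Of the other class II chain genes, H2-Oa, the alpha chain of the DM inhibitor H2-O, was the only 1 of 3 in the table that was tested. It had 0.85 ± 0.184 FPKM (SD, n = 3) in LPS and 0.17 ± 0.0390 (SD, n = 6) in LPS+CLA, a change of -0.66 (SE 0.145, limma adjusted p = 0.000441). It was at 1.39 ± 0.853 FPKM (SD, n = 3) in LPS+dNC and 0.438 ± 0.170 (SD, n = 5) in LPS+siAtg5 (-0.68, SE 0.15, limma adjusted p = 0.000258). LPS+Baf A1, at 1.08 ± 0.271 FPKM (SD, n = 5), did not pass against LPS (limma adjusted p = 0.371).

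The genes most like each member across the 22 libraries, by Pearson's r of log2(FPKM + 1), are given as a description. The libraries share their groups, so r mostly follows the group means. For Cd74 the highest were Atf4 (0.961), Mmp25 (0.957), Pim1 (0.952), Aoah (0.939) and H2-M3 (0.937). For H2-Ab1 they were Slc27a4 (0.968), Lpcat1 (0.963), Surf4 (0.953), Procr (0.938) and Bcl2a1a (0.938). For Ciita they were Mro (0.946), Mcam (0.943), B4galnt4 (0.942), Jph3 (0.935) and S100b (0.933), all at or below a group mean of 1.53 FPKM and highest in LPS+siAtg5. Their means in the other groups were at most 0.43 FPKM, so they met the filter of 1 FPKM through LPS+siAtg5. Ciita was highest in that group too, so the filter favours such genes and these r values are no evidence of a link. S100b is also on the astrocyte list.

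The members were less like each other. Over the 22 libraries r was 0.486 between Cd74 and H2-Ab1 and -0.657 between H2-Aa and H2-Ab1, and after the group means were removed it was 0.57 and 0.432. With group means removed, the gene most like Cd74 was Prdx5 (0.873) and the gene most like H2-Ab1 was Id3 (0.815).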

How the data were processed

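The authors deposited FPKM per gene symbol, per the file headers. For LPS+dNC the headers give no unit, and range and sums were those of FPKM. The submitters' processing notes list StringTie 1.3.1, HISAT2, Bowtie2 2.2.8, fastp 0.18.0 and CASAVA 1.7. Not given in the sources used here are genome build, annotation and the strand of counting. Coordinates are from GENCODE vM21 on GRCm38.

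Values were taken as log2(FPKM + 1), which understates the change of low genes. A model with 5 group means was fitted to 22 libraries with limma 3.58.1 in R 4.3.3 (trend and robust empirical Bayes, 17 residual degrees of freedom) over 11070 genes with at least 1 FPKM in 3 libraries, and was tested on simulated data. Exact permutation tests were also computed in R 4.3.3. Alternatives changed the pseudocount, filter, scaling, libraries, weights, block and empirical Bayes options.

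The members and lists were chosen with earlier results of these data known. All 7 members are named; of each list, up to 3 called genes per direction and main comparison with the smallest adjusted p, plus Irf1, Rfx5, Ctss and Il10, leaving out 1 gene that is not reported here; for likeness, the 5 genes with the highest r. A few genes that did not pass are named from the same lists. Replicate numbers did not pair the libraries.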

Additional observations from a re-analysis of the deposited data

Results flagged for a closer look

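Cd74 in LPS+CLA replicate 2 stood far from the rest of its group, at 30.66 FPKM where the other 5 libraries had 16 to 17.98. Its gap to the nearest library was 0.865 of the range of the group, above Dixon's critical value of 0.625. Of 19 groups of member values tested this way 1 stood out, and chance alone gives about 1 in 20. The same library lay apart over all genes, with an SD of log2 differences to its group mates of 0.267 to 0.273. H2-Ab1 in that library was 5.73 FPKM, inside the range of its group.

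The effects of Baf A1 and of Atg5 siRNA, each over its own comparator, differed for 2 members by a test of the difference in limma. For H2-Ab1 the difference was 3.346 on the log2(FPKM + 1) scale (adjusted p = 9.45e-15), with higher values in all 5 LPS+Baf A1 libraries and lower values in all 5 LPS+siAtg5 libraries than in their comparators. For Cd74 it was 1.091 (adjusted p = 0.000345), with lower values in all libraries of both groups.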

How the results depend on the processing

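Of 28 values (4 members in 7 contrasts), 21 kept their side of the threshold under every alternative. Of 537 values under alternatives, 513 kept it, 8 lost the call and 16 gained it, and 0 values that were called changed direction. Cd74 in LPS+CLA against LPS+Baf A1, not called, ranged from -0.05 to 0.13. For LPS+siAtg5 against LPS+dNC, 4 members were called without a filter (7 tested) and 4 with quantile normalization, in place of 2. Without a filter 5 were called for LPS+siAtg5 against LPS, in place of 3, and 4 for the difference of the Baf A1 and siAtg5 effects, in place of 2. For LPS+CLA against LPS+Baf A1, 2 were called in place of 1 with array weights and without the 3 libraries that lay apart. Leaving out 1 library at a time gave 1 to 2 there, with 2 without LPS+CLA replicate 2 or 4 or LPS+Baf A1 replicate 4. H2-DMa in LPS+Baf A1 lost its call with array weights (-0.32, limma adjusted p = 0.069) and without the 3 libraries that lay apart (-0.32, limma adjusted p = 0.101). H2-DMb1 in LPS+CLA lost its call when only the compared groups were fitted (limma adjusted p = 0.0589). The cause was not tested.

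Replicate numbers did not pair the libraries: deviations of same-numbered libraries correlated at -0.113 to 0.091 in the 9 pairs of the main comparisons. With a replicate block the call of H2-DMb1 in LPS+CLA was lost (0.21, limma adjusted p = 0.0834), and no other call of a member changed.

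Over all genes, the share of calls that were higher moved by over 10 percentage points with the scaling. It was 73.4% for LPS+siAtg5 against LPS+dNC, 54.1% with median-of-ratios scaling and 50.8% with quantile normalization. For LPS+siAtg5 against LPS it was 79.7%, 50.8% and 48.5%, for LPS+CLA against LPS 64.1%, 49.4% and 53.6%, for LPS+CLA against LPS+Baf A1 65.1%, 51.1% and 53.8%, and for the difference of effects 28.1%, 44.5% and 49.6%. Read counts were not used here, so no counting error could be given, which limits Ciita, H2-Aa and H2-Eb1 most.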

Other observations

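H2-Ob, the beta chain of H2-O, was too low to be tested, and its values are given without a test. It had 0.083 FPKM in LPS, 0.456 in LPS+Baf A1, 0.262 in LPS+CLA, 0.197 in LPS+dNC and 0.028 in LPS+siAtg5, as group means. The group with the highest mean of H2-Ob, LPS+Baf A1, was also the one with the highest mean of H2-Ab1.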
